A study of Mus musculus with 8 samples.

Results

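A set of 10 well-known target genes of the tumour suppressor p53 was followed through the peak lists of this study: Cdkn1a, Btg2, Ccng1, Phlda3, Mdm2, Sesn2, Trp53inp1, Bax, Aen and Zmat3. They were chosen by name, as 10 of the 21887 protein-coding genes on the chromosomes of the lists, with earlier results of these data known. The intervals given below cover counting error and not this choice. All 10 were found in the GRCm38 annotation, to which mm10 coordinates belong. For each gene, every HMGA2, γ-H2AX and ATM peak that shared at least 1 bp with the gene body or the 10 kb on either side of it was taken. These stretches are called windows below. They were 23.1 kb (Phlda3) to 50.9 kb (Zmat3) long and came to 333 kb in all.

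The data came from chromatin immunoprecipitation followed by sequencing (ChIP-seq), which maps where a protein or a modified histone sits on DNA, in mouse embryonic fibroblasts (MEF). The cells were of the C57BL/6 strain, from E15.5 embryos, kept for 2 to 4 passages in medium with serum, and no treatment or damaging agent is named in the labels. The 8 libraries covered HMGA2, phosphorylated H2AX (H2AXS139ph, here γ-H2AX), ATM and input DNA, each in Hmga2 wild-type (wt) and Hmga2 knockout (Ko) cells, with 1 library per antibody and genotype. The 3 wild-type lists were used, with 152834 HMGA2, 124947 γ-H2AX and 119570 ATM peaks, and knockout and input libraries were not analysed here. With 1 library each there was no replicate error, no comparison between conditions and no test, and every value describes these libraries.

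p53 is a transcription factor held at a low level in unstressed cells. When DNA is damaged, the kinase ATM and the checkpoint kinases it activates stabilise p53, and ATM also phosphorylates H2AX in the chromatin around the break, which gives γ-H2AX. p53 then raises genes that halt the cell cycle (Cdkn1a, Btg2, Ccng1), restrain growth signalling (Sesn2, Phlda3), promote cell death or autophagy (Bax, Aen, Trp53inp1) and limit p53 itself (Mdm2). HMGA2 is an architectural chromatin protein of embryonic cells whose AT-hooks bind the minor groove of AT-rich DNA. RNA and p53 binding were not measured in the files used here.

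The study's title links HMG-protein-mediated transcription to γ-H2AX, so the starts of these genes were examined first. A promoter window of 250 bases before to 50 after an annotated start was listed in RefSeq (GRCm38.p6) for 8 of the 10 genes. Zmat3 and Trp53inp1 were not matched. ATM peaks reached into the promoter windows of Cdkn1a and Aen, and both peaks were also regions of the authors' ATM promoter list. Each of these genes has 2 annotated starts, and only the window of the outermost was reached. No HMGA2 or γ-H2AX peak reached into a promoter window of the 8 genes. The share of all promoters reached by an ATM peak was not computed, but 9.98% of coding genes had one within 1 kb of a start. The sequences of the 2 windows reached follow, 5′ to 3′ on the plus strand, with the bases under the ATM peak in capitals.
Cdkn1a (chr17:29090729-29091028): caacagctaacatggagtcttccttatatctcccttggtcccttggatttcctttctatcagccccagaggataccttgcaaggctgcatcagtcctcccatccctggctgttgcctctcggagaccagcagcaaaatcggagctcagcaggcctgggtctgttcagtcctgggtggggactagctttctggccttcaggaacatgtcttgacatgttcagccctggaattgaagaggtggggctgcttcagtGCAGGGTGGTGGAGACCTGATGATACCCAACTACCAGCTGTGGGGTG
Aen (chr7:78895677-78895976): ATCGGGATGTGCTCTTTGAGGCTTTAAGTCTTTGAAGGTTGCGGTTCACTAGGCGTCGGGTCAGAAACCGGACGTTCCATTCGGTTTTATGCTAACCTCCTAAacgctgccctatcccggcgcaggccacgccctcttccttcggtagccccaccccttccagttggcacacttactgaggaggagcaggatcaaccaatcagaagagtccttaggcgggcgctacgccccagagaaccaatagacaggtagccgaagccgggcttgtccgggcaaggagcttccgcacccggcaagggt
At Cdkn1a the ATM peak (score 20.6) covered the last 47 of the 300 bases, and at Aen (score 23.2) the first 103. The score is the authors' own value, 10 times the negative log10 of the p of the peak, and 20 was their threshold, so both lay close to it.

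These promoters were also searched for the p53 consensus decamer, the sequence that p53 binds as adjoining pairs. It was looked for by its usual degenerate consensus, which reads the same on both strands, and matches could overlap. Of the 8 genes with a promoter window, 5 held a decamer without mismatch. So did 9.55% of the 27025 genes with a listed window, of which only 17492 were protein-coding genes on the chromosomes of the lists. Counted by window, as some genes have several starts, a decamer was in 6 of 10 windows of the 8 genes and 8.36% of all 32851. An adjoining pair with at most 1 mismatch in its 20 bases was present in 29 of those promoters (0.0883%), and Cdkn1a and Ccng1 were among them. The matches are shown on the strand of the gene, with a decamer that matched the consensus in capitals and its partner, which held the mismatch, in lower case.
Cdkn1a, chr17:29090928-29090947: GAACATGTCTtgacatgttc
Ccng1, chr11:40755462-40755481: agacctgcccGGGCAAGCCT
Mdm2, chr10:117710935-117710944: GAACTTGCCT
Bax, chr7:45467090-45467099: AGGCAAGCTT
Aen, chr7:78895937-78895946: GGGCTTGTCC
A match is a description of the letters and not a measured binding site, and genes known as p53 targets were chosen here by name. Cdkn1a held a further single decamer at 29090906 to 29090915. None of these sites lay under a peak of the 3 lists. The Cdkn1a pair was 35 bp from the ATM peak and the Aen decamer 158 bp from the ATM peak, whereas at Ccng1 (2004 bp), Bax (2031 bp) and Mdm2 (3587 bp) the nearest peak was farther away. The share of A and T in the members' promoter windows was 28% to 45.3%, with a median of 36.0% over 10 windows. The median over all promoters, which are not those of protein-coding genes alone, was 47.3%.

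Over the 10 windows there were 18 HMGA2, 28 γ-H2AX and 13 ATM peaks. To set window length and list size aside, the number expected in each window was computed as the mean over every circular rotation of the list along its chromosome. This gave 19.7 HMGA2, 16.6 γ-H2AX and 15.52 ATM peaks. The ratio of found to expected peaks was therefore 1.69 for γ-H2AX, with a 95% exact Poisson interval, which covers counting error only, of 1.12 to 2.44. HMGA2 had a ratio of 0.914 (0.541 to 1.44) and ATM one of 0.838 (0.446 to 1.43). The direction of these ratios below 1 depended on the settings. With 1 kb in place of 10 kb on either side of the body, HMGA2 stood at 1.29 (12 peaks against 9.29 expected) and ATM at 1.52 (11 against 7.21), and γ-H2AX at 2.07. HMGA2 was also above 1 against the density within 1 Mb (1.25) and with scores of at least 30 (1.33). In the other settings it stayed below 1, for example with 5 kb on either side (0.934) and with scores of at least 25 (0.826). When only scores of at least 25 were counted, the γ-H2AX ratio was 1.37 (8 peaks against 5.85), and at 30 or above it was 1.16 (2 against 1.73). Over all protein-coding genes, in windows drawn the same way, γ-H2AX had a ratio of 1.12, HMGA2 of 0.953 and ATM of 0.991. The interval of γ-H2AX at the 10 genes reached down to that background, and the intervals of HMGA2 and ATM held it. The ratios of all coding genes are for 10 kb on either side and all scores. They were not computed for the other settings, so the higher ratios with 1 kb are not shown to be particular to the 10 genes. The median γ-H2AX ratio per gene was 1.63 against 0.936 over all coding genes, the HMGA2 median 0.774 against 0.701 and the ATM median 0.576 against 0.870.

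All 10 genes had a γ-H2AX peak in the window, where 79.2% of protein-coding genes did. HMGA2 peaks were found at 8 of 10 (background 74.6%) and ATM peaks at 7 of 10 (77.7%), close to the background. Peaks of all 3 antibodies were found at 6 of 10 genes against 54.9% of coding genes. The number of γ-H2AX peaks was above that expected at 8 of the 10 genes, where 46.7% of coding genes were above it. For HMGA2 this held at 3 genes (background 34.4%) and for ATM at 2 (40.7%). The plot of found and expected peaks shows that γ-H2AX exceeded the expected number at most genes by a small margin, whereas HMGA2 and ATM had their largest excess over the expected number at Mdm2.

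**Figure D1:**
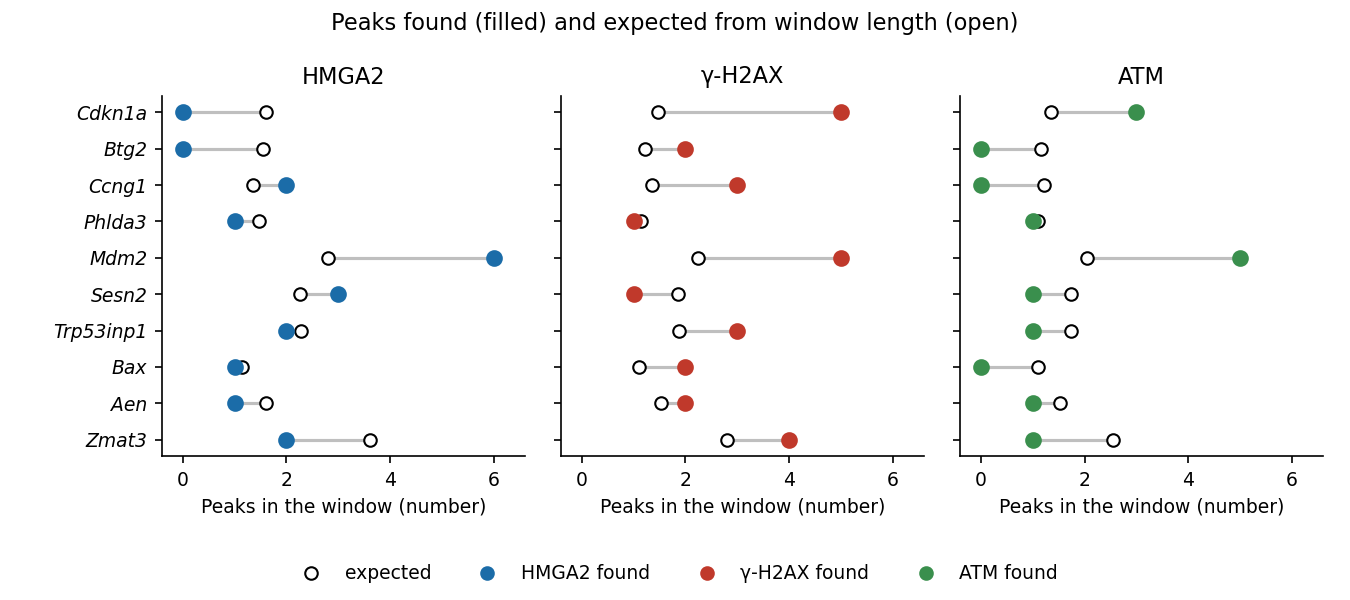
Number of peaks in the window of each gene (filled) and number expected from window length (open), with 1 panel per antibody; the x axis is a count of peaks from 1 library. Mdm2 had 6, 5 and 5 peaks of HMGA2, γ-H2AX and ATM, and Cdkn1a 5 γ-H2AX peaks against 1.47 expected.

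Near the ends of the genes the counts were small. A γ-H2AX peak lay within 1 kb of an annotated end of 4 of 10 genes (Sesn2, Phlda3, Aen and Zmat3), against 23.3% of coding genes. HMGA2 peaks lay there at 3 genes (Mdm2, Phlda3 and Aen; background 17.9%) and ATM peaks at 3 (Cdkn1a, Sesn2 and Aen; 16.1%). Around transcription starts alone, in the 8 genes with a listed start, there was 1 gene with HMGA2 within 1 kb (Aen; background 10.2%), 1 with γ-H2AX (Sesn2; 17.5%) and 2 with ATM (Aen and Cdkn1a; 9.98%). A region of the γ-H2AX promoter list fell within 1 kb of an end at 1 of 10 genes (Sesn2; 9.03%), and one of the ATM promoter list at 2 of 10 (Cdkn1a and Aen; 3.44%). Widening this to the whole window added no gene to either, where the background was 14.4% and 5.79%.

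**Figure D2:**
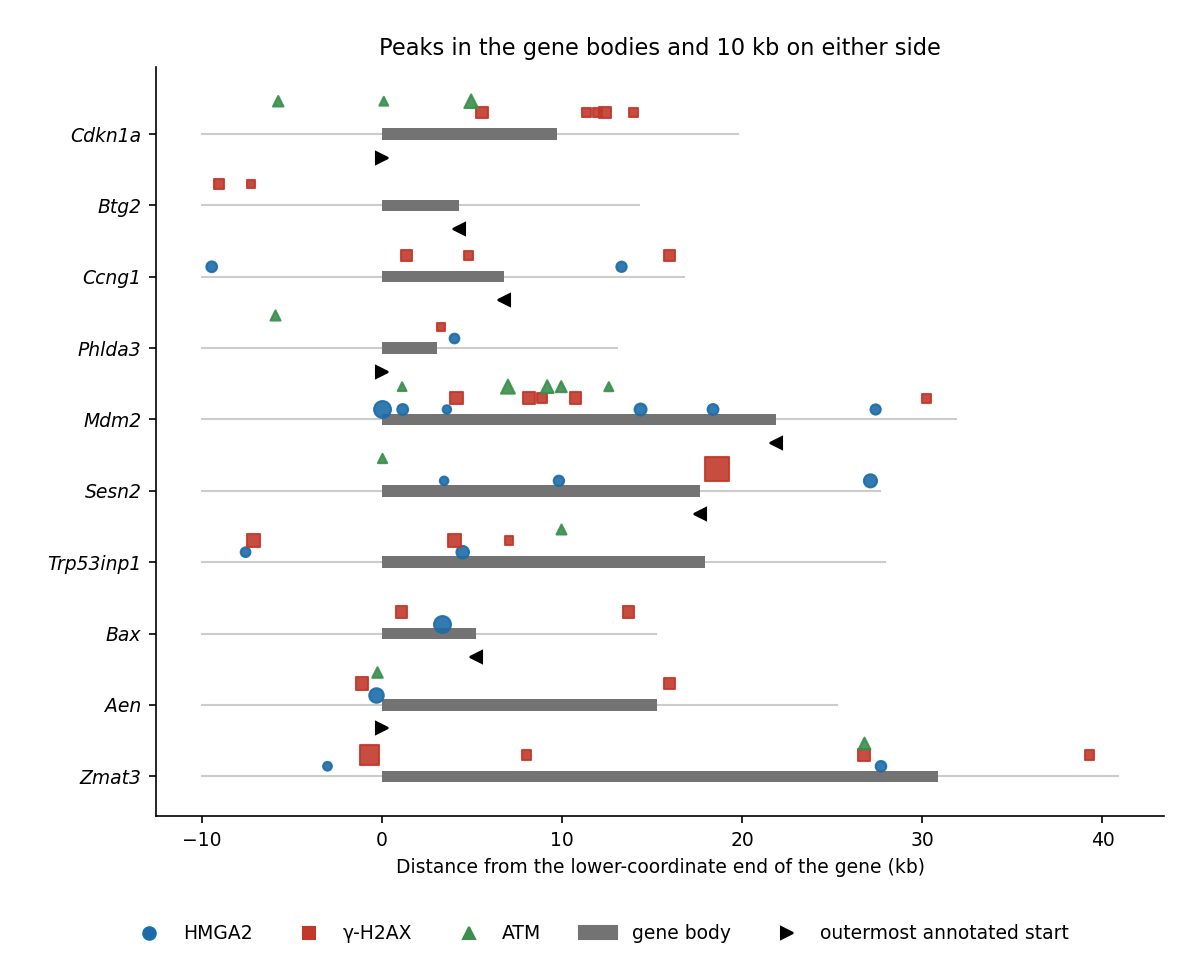
Peaks of HMGA2 (circles), γ-H2AX (squares) and ATM (triangles) along each gene, as distance in kb from its lower-coordinate end; grey bars are gene bodies, thin lines the 10 kb on either side, arrowheads annotated starts where listed, and a larger marker is a higher score. The largest marker is the γ-H2AX peak before the start of Sesn2 (score 60.8), and 4 γ-H2AX peaks stand together beyond the end of Cdkn1a.

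Cdkn1a encodes p21, the inhibitor of cyclin-dependent kinases through which p53 halts the cell cycle (chromosome 17, 29090979 to 29100722, plus strand). It carried 5 γ-H2AX peaks and 3 ATM peaks, and no HMGA2 peak where 1.61 were expected. Of all coding genes, 25.4% likewise had no HMGA2 peak in the window. Its γ-H2AX density of 1.68 peaks per 10 kb was above that of 98% of protein-coding genes, and its ATM density of 1.01 above that of 93.7%. By number of peaks, without regard to window length, 23.5% of coding genes had as many or more γ-H2AX peaks and 35.4% as many or more ATM peaks. 1 γ-H2AX peak lay in the body (29096459 to 29096600, score 24.6). The other 4 followed the gene's 3′ end, at 1502, 2095, 2552 and 3950 bp beyond it, with scores of 20.8, 20.8, 24.6 and 20.4. They fell within 2985 bp (29102224 to 29105208), and the last was 537 bp wide, the 101st widest of the γ-H2AX list. A place with 4 γ-H2AX peaks in 3 kb, a measure chosen after these peaks were seen, was found in the windows of 0.640% of coding genes. Of the 4 peaks, 3 scored near the threshold of 20, and the third, at 24.6, lay above the list's median of 23.6. The ATM peaks lay 5680 bp before the outermost start (29085145 to 29085299, score 23.1), 3 bp past that start (29090982 to 29091183, score 20.6) and in the body (29095821 to 29096039, score 28.8). The last was 419 bp from the γ-H2AX peak in the body and did not overlap it. Near the inner annotated start at 29093769, the closest peak of any list was that ATM peak, 2052 bp downstream.

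Btg2, an antiproliferative protein that recruits the CCR4-NOT deadenylase (chromosome 1, 134074865 to 134079155, minus strand), was the barest of the 10 genes. It had 2 γ-H2AX peaks and no HMGA2 or ATM peak, where 1.55 and 1.16 were expected, a combination found in 5.20% of coding genes. Both γ-H2AX peaks lay outside the gene on its 3′ side, 7178 bp (134067514 to 134067687, score 20.2) and 8974 bp (134065698 to 134065891, score 22.4) beyond the end. There was thus no peak of the 3 lists in the body of Btg2 or within 1 kb of its ends.

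Ccng1, which encodes cyclin G1, a partner of protein phosphatase 2A and Mdm2 (chromosome 11, 40748552 to 40755309, minus strand), had 3 γ-H2AX peaks against 1.36 expected. They were at 40749818 to 40750004 (score 23.4) and 40753249 to 40753458 (20.3) in the body and at 40764440 to 40764589 (23.9), 9131 bp upstream. The 2 HMGA2 peaks stood on opposite sides of the gene, 6449 bp upstream (40761758 to 40761948, score 22.8) and 9374 bp downstream (40739026 to 40739178, score 23.4). The latter lay inside the neighbouring gene Nudcd2. No ATM peak was called, as in 22.3% of coding genes.

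Phlda3, a pleckstrin-homology protein that restrains Akt (chromosome 1, 135766085 to 135769134, plus strand), had 1 peak of each antibody, all outside the 3.05 kb body. The γ-H2AX peak began 123 bp beyond the 3′ end (135769257 to 135769462) and, at a score of 20.04, was barely inside the threshold. The HMGA2 peak followed at 894 bp (135770028 to 135770190, score 21.8), and the ATM peak lay 5865 bp upstream of the start (135760062 to 135760220, score 22.4).

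Mdm2, the ubiquitin ligase that degrades p53 and is itself raised by it (chromosome 10, 117688875 to 117710758, minus strand), carried the most peaks of the 10 genes. There were 6 HMGA2 peaks against 2.80 expected, 5 γ-H2AX against 2.24 and 5 ATM against 2.05. The densities were above those of 95.9%, 91.5% and 96.4% of coding genes, respectively. By number of peaks, without regard to window length, 16.9%, 23.5% and 18.0% of coding genes had as many or more. Of these 16 peaks, 14 touched the gene body, and none lay within 1 kb of the annotated start at 117710758. The HMGA2 peak with the highest score, 36.5, straddled the 3′ end (117688850 to 117688967). It was followed inside the gene by peaks at 117689936 to 117690120 (23.7), 117692395 to 117692569 (20.1), 117703163 to 117703303 (25.5) and 117707164 to 117707348 (23.7). The remaining HMGA2 peak was 5431 bp upstream (117716189 to 117716380, score 22.6). Most γ-H2AX and ATM peaks of this gene lay in the body between 117692914 and 117701557, and clustering was not tested. The γ-H2AX peaks of the body were at 117692914 to 117693140 (26.6), 117696969 to 117697139 (25.9), 117697683 to 117697847 (21.5) and 117699514 to 117699726 (24.6), with one more 8289 bp upstream (117719047 to 117719216, 20.8). ATM peaks stood between and around them, at 117695766 to 117695973 (29.6), 117697986 to 117698118 (27.1), 117698737 to 117698919 (23.96) and 117701385 to 117701557 (20.9). In that stretch no γ-H2AX peak overlapped an ATM peak, and the closest pair was 138 bp apart. The remaining ATM peak (117689911 to 117690082, score 20.5) shared 147 bp with an HMGA2 peak (score 23.7) near the 3′ end. Because Mdm2 held so many peaks, the ratio of found to expected over the other 9 genes was lower, at 0.710 (HMGA2) and 0.594 (ATM).

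Sesn2, a stress-induced sestrin that restrains mTORC1 (chromosome 4, 132492804 to 132510456, minus strand), combined the highest score with few peaks. Its single γ-H2AX peak lay 765 bp upstream of the start (132511221 to 132511570) with a score of 60.8, the 73rd highest of 124947. It was 350 bp wide against a median of 168 bp in the list and was a region of the authors' γ-H2AX promoter list. Yet the number of γ-H2AX peaks in the window was below that expected, 1 against 1.85. The single ATM peak (132492716 to 132492882, score 21.2) was found at the far end instead, across the gene's 3′ boundary. HMGA2 had 3 peaks, in the body at 132496169 to 132496342 (20.2) and 132502551 to 132502706 (22.9) and 9390 bp upstream (132519846 to 132520005, 27.8). No peak of another list lay within 500 bp of the γ-H2AX peak.

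Trp53inp1, a nuclear protein of the stress response that promotes autophagy and cell death (chromosome 4, 11156441 to 11174379), had 3 γ-H2AX, 2 HMGA2 and 1 ATM peaks, against 1.87, 2.28 and 1.74 expected. Both HMGA2 peaks had a γ-H2AX peak close by without overlap. Below the lower-coordinate end, HMGA2 at 11148772 to 11148969 (21.8) and γ-H2AX at 11149246 to 11149407 (27.4) were 276 bp apart. In the body, γ-H2AX at 11160398 to 11160531 (26.9) and HMGA2 at 11160835 to 11161017 (26.6) were 303 bp apart. The other γ-H2AX peak (11163410 to 11163580, 20.7) and the ATM peak (11166288 to 11166447, 22.3) were in the body.

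Bax, the effector that permeabilises the outer membrane of mitochondria (chromosome 7, 45461695 to 45466903, minus strand), had an HMGA2 peak inside the gene (45464956 to 45465059). Its score of 36.5 equalled that of the peak at the end of Mdm2, the highest HMGA2 score at these genes. A γ-H2AX peak lay in the body (45462702 to 45462843, 24.6) and another 8391 bp upstream (45475294 to 45475472, 24.6), inside the neighbouring gene Dhdh. No ATM peak was called, where 1.10 were expected.

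Aen, a nuclease that enhances apoptosis (chromosome 7, 78895927 to 78911209, plus strand), had 4 peaks and none in its body, with 3 of them before the start. HMGA2 (78895500 to 78895674, score 30.7) and ATM (78895520 to 78895779, score 23.2) shared 155 bp just upstream, ending 253 bp and 148 bp before the start. The ATM peak is the one shown in capitals in the promoter above, and the HMGA2 peak ended before that window began. A γ-H2AX peak (78894741 to 78894908, 26.4) lay 1019 bp upstream of the start and the other (78911826 to 78911978, 23.4) 617 bp beyond the 3′ end. The 3 upstream peaks also fell inside Gm39039, a long non-coding RNA gene, so they cannot be assigned to Aen alone. Aen was the only one of the 8 genes with a listed start where peaks of more than 1 antibody were within 1 kb of it. The share of coding genes with such a start was not computed, so this is not shown to set Aen apart.

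Zmat3, a zinc-finger protein that binds RNA (chromosome 3, 32334792 to 32365665), is the longest of the 10 genes. It had 4 γ-H2AX peaks against 2.80 expected, with 2 HMGA2 peaks against 3.62 and 1 ATM peak against 2.54. The γ-H2AX peak 587 bp below its lower-coordinate end (32334010 to 32334205) had a score of 44.5, the 959th highest of its list, and was not in the γ-H2AX promoter list. In the body a γ-H2AX peak (32361480 to 32361615, 26.5) lay wholly within an ATM peak (32361476 to 32361649, 25.4), with 136 bp shared. The other γ-H2AX peaks were at 32342742 to 32342905 (21.7) and 8342 bp above the higher end (32374007 to 32374166, 21.6). HMGA2 peaks were at 32331684 to 32331855 (20.5), 2937 bp below the gene, and at 32362386 to 32362608 (23.2) in the body.

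**Figure D3:**
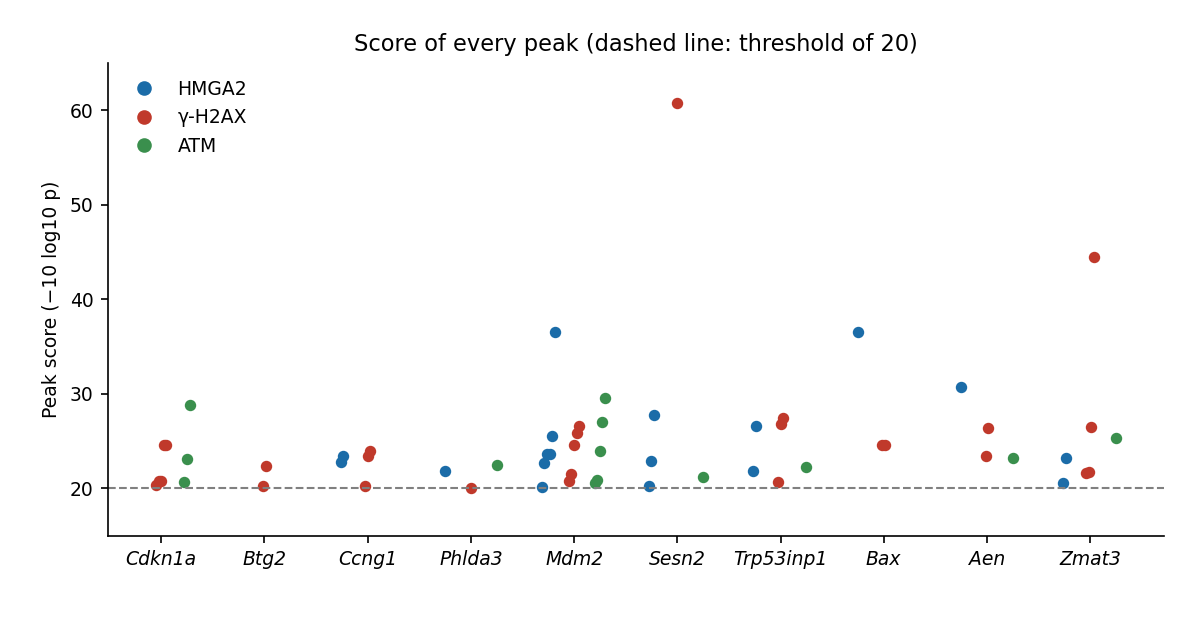
Score (10 times the negative log10 of p) of every peak by gene and antibody, with points spread sideways for legibility and a dashed line at the authors' threshold of 20. All ATM peaks scored under 30, and the 2 γ-H2AX peaks above 40 belong to Sesn2 and Zmat3.

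Most of these peaks were weak. Under a score of 30 were 15 of 18 HMGA2, 26 of 28 γ-H2AX and 13 of 13 ATM peaks, as were 88.4%, 89.7% and 89.8% of the whole lists. Median scores of the HMGA2, γ-H2AX and ATM peaks were 23.3, 23.7 and 23.1, where the lists had 23.8, 23.6 and 23.6. Apart from the γ-H2AX peaks at Sesn2 and Zmat3 and the HMGA2 peaks at Mdm2, Bax and Aen, the genes carried peaks of the strength common in each list. Scores were also coarse. The pair of width and score of a peak recurred elsewhere in the same list for 18 of 18 HMGA2, 23 of 28 γ-H2AX and 13 of 13 ATM peaks, and for 97.2%, 97.2% and 97.1% of the lists. The γ-H2AX peaks in the bodies of Bax and Cdkn1a, for example, had the same width of 142 bp and score of 24.6, shared by 38 peaks of the list. At Sesn2 the highest-scoring peak was alone in its width and score, as were the 4 γ-H2AX peaks beyond Cdkn1a.

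Gene bodies made up 39.9% of the windows and held 12 of 28 γ-H2AX peaks (42.9%), 10 of 18 HMGA2 peaks (55.6%) and 10 of 13 ATM peaks (76.9%). In the bodies, γ-H2AX had 1.78 times the expected number, HMGA2 1.23 times and ATM 1.59 times. Of those 10 ATM peaks, however, 5 were in Mdm2. Body shares and body ratios of all coding genes were not computed, so these values are not shown to be particular to the 10 genes. Outside the bodies of the 8 genes with a listed start, γ-H2AX had 5 peaks upstream and 8 downstream, HMGA2 4 and 2, and ATM 3 and 0. Of the 8 downstream γ-H2AX peaks, 4 were those beyond Cdkn1a, and without that gene the count was 5 upstream and 4 downstream. With so few peaks, and no test, these counts do not show that the antibodies differed in position.

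Overlaps between antibodies were few. HMGA2 and ATM peaks overlapped at 2 places (Aen and Mdm2), 11.1% of the 18 HMGA2 and 15.4% of the 13 ATM peaks, where 2.42% and 3.08% of the whole lists did. γ-H2AX and ATM overlapped at 1 place (Zmat3), 3.57% of 28 and 7.69% of 13 peaks, against 2.68% and 2.79% of the lists. HMGA2 and γ-H2AX did not overlap in any window, where 2.67% and 3.26% of the lists did, and no place carried all 3. By gene, an overlap of HMGA2 and ATM was present at 2 of 10 against 7.58% of coding genes, of γ-H2AX and ATM at 1 of 10 against 8.22%, and of HMGA2 and γ-H2AX at 0 of 10 against 9.72%. Within 500 bp of each other there were 3 pairs of HMGA2 and γ-H2AX peaks (Mdm2 with 344 bp between them, and Trp53inp1 at both places given above). There were likewise 2 pairs of HMGA2 and ATM and 3 of γ-H2AX and ATM. At so few peaks, shares of this size rest on 1 or 2 places each.

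Other genes of the pathway were set beside the 10. Among 24 further genes taken as p53 targets the ratios of found to expected γ-H2AX, HMGA2 and ATM peaks were 1.47 (1.19 to 1.79), 1.24 (1.01 to 1.51) and 1.25 (0.989 to 1.57). Cdkn1b, which is less firmly established as a p53 target, was counted among them, with 4 HMGA2 peaks against 1.49 expected. The ratios without it were not computed. Among 12 regulators of p53 the ratios, in the same order, were 1.55 (1.23 to 1.93), 1.24 (0.974 to 1.56) and 1.43 (1.11 to 1.82). The γ-H2AX value of the 10 genes thus lay within the intervals of both sets, and the difference between sets was not tested. Peaks of all 3 antibodies were found at 21 of 24 targets and 11 of 12 regulators, against 54.9% of coding genes. The targets and regulators are longer, with medians of 25 kb and 55.2 kb, and these shares were not adjusted for length. The median was 12.5 kb for the 10 genes and 17.2 kb for all coding genes. Within 1 kb of an end, HMGA2, γ-H2AX and ATM peaks were at 7, 4 and 4 of the 24 targets and at 4, 6 and 5 of the 12 regulators. Of all coding genes, 17.9%, 23.3% and 16.1% had such peaks. At the targets the γ-H2AX share of 16.7% was below this background, and the ATM share of 16.7% was close to it. The other shares of targets and regulators within 1 kb of an end were above those of coding genes. The highest HMGA2 scores there were at Cdkn1b, the p27 inhibitor of cyclin-dependent kinases (29.8), the death receptor gene Tnfrsf10b (28.9) and Ppm1d, the phosphatase that switches off ATM signalling (27.3). For γ-H2AX they were at the checkpoint kinase gene Chek2 (29.9), Apaf1 of the apoptosome (28.9) and Trp53bp1 (28.9). For ATM they were at the ubiquitin ligase gene Fbxw7 (31.1), the p53 inhibitor gene Mdm4 (28.3) and Pml of nuclear bodies (25.5). The γ-H2AX scores at these genes were below those of Sesn2 and Zmat3. Trp53 itself had an HMGA2 peak (26.3) and a γ-H2AX peak (25.3) within 1 kb of an end, and no ATM peak in its window.

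**Figure D4:**
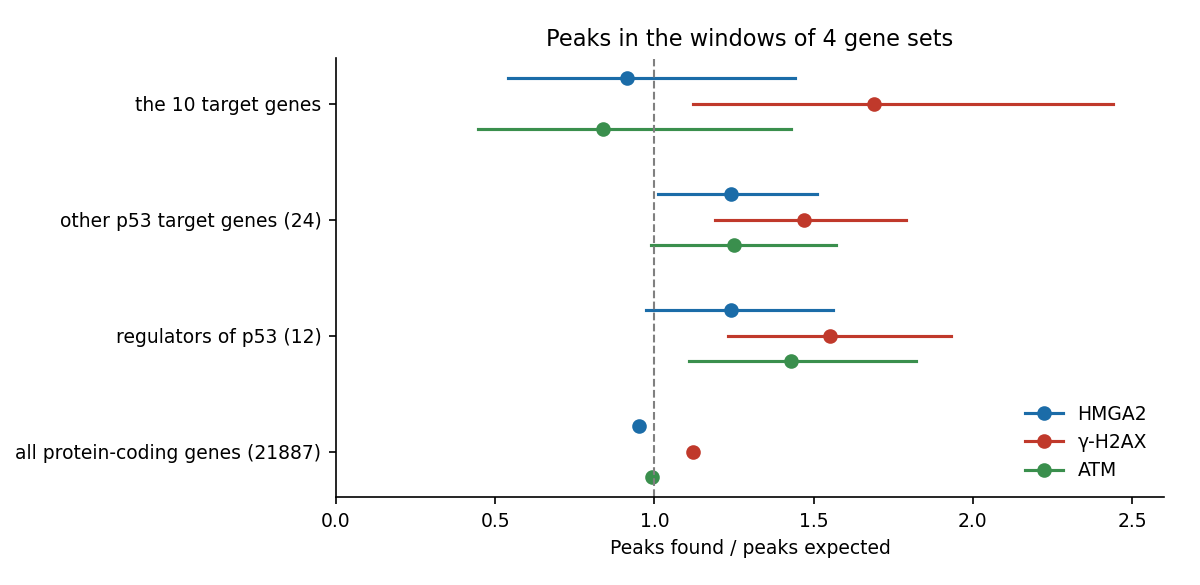
Ratio of peaks found to peaks expected in the windows of 4 gene sets, with the number of genes in brackets; bars are 95% exact Poisson intervals of counting error, not drawn for all protein-coding genes, whose windows overlap each other, and the dashed line marks a ratio of 1. At the 10 target genes γ-H2AX stood at 1.69, with HMGA2 at 0.914 and ATM at 0.838.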

How the data were processed

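ChIP-seq peak lists of 3 wild-type MEF libraries were analysed. Per the labels, MACS14 called the peaks with the model step off, a p cutoff of 0.01 and 30 bp as shift size. Trimmomatic, SAMtools, HOMER and Bowtie2 (no versions) and mm10 are listed per the submitters' processing notes. The control library of the calls and the read depth are not given in the sources used here. The deposited score of a peak is 10 times the negative log10 of its p, which the lowest value of 20 matches at the threshold per the labels. Scores only described and filtered peaks within a list. The deposited promoter lists (unit other, start and end only) carry no measured value. Their starts count from 1, since all 2220 γ-H2AX regions and 788 of 866 ATM regions then equal a peak. The rule behind them is not given in the sources used here.

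Genes, neighbours and promoters came from RefSeq tables (GRCm38.p6), and strand and transcription starts from the promoter table. Exons, introns and UTRs were not annotated. Windows were the gene body and 10 kb on either side, and a peak counted from 1 bp shared. The expected number was the mean over all circular rotations of the list within a chromosome, from its first to its last peak, computed directly. Intervals are 95% exact Poisson intervals of counting error. Neighbouring peaks may depend on each other, which these intervals leave out. Code ran in Python 3.11.15 with pandas 2.3.3, was tested on simulated data, and gave the counts of bedtools 2.31.1. All 10 genes were named by the rule, with, of the other pathway genes, the 3 per antibody that had the highest score within 1 kb of an end. Trp53 was named after its values were seen. The members and gene lists were chosen with earlier results of these data known. Alternatives changed the score threshold, flank, overlap, expected number and genes included.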

Additional observations from a re-analysis of the deposited data

How the results depend on the processing

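Of 86 values under alternative settings, 71 stayed within the interval of the reported ratio or within 1.5 times the reported count, and 15 did not. This tally does not measure robustness. The intervals were wide, values with 1 gene left out shared most of their peaks, and stricter filters could not change an overlap count of 0. Most of the 15 came from the score threshold. With a score of 25 or more, HMGA2, γ-H2AX and ATM peaks remained at 5, 5 and 3 genes (8, 10 and 7 as reported), all 3 at 1 gene in place of 6, and the 2 overlaps of HMGA2 and ATM fell to 0. With a score of 30 or more there were 3, 2 and 0 genes, 0 genes with all 3, 0 overlaps of HMGA2 and ATM and 0 of γ-H2AX and ATM, and the ATM ratio was 0 against 1.57 peaks expected. The share of coding genes with peaks at these thresholds was not computed. As 88.4%, 89.7% and 89.8% of the HMGA2, γ-H2AX and ATM lists scored under 30, these losses cannot be read as particular to the 10 genes. The γ-H2AX ratio of 1.69 was 1.37 with a score of 25 or more and 1.16 with 30 or more, and HMGA2 had 0.826 and 1.33. With 1 kb on either side of the body the ATM ratio was 1.52 in place of 0.838, HMGA2 stood at 1.29 against 0.914, and γ-H2AX stood at 2.07. The ratios of all coding genes with 1 kb on either side were not computed. Counting peaks within 500 bp raised the pairs of HMGA2 and γ-H2AX from 0 to 3 and those of γ-H2AX and ATM from 1 to 3. Against the density within 1 Mb on either side, HMGA2, γ-H2AX and ATM had ratios of 1.25, 1.65 and 0.958. Leaving out each gene in turn gave 0.710 (without Mdm2) to 0.995 (without Cdkn1a) for HMGA2, 1.52 (without Cdkn1a) to 1.83 (without Sesn2) for γ-H2AX and 0.594 (without Mdm2) to 0.925 (without Zmat3) for ATM. No paired analysis was possible because each group had 1 library. Without replicates, input or read depth, the precision of a single peak cannot be given, and a weak peak cannot be told apart from background that the libraries share.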
